A study of Mus musculus with 47 samples.

Results

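The genes described here encode the proteasome, together with its activators and assembly factors, and they were taken as every mRNA in the files whose symbol begins with Psma to Psmg followed by a digit. The rule found 51 genes of 18913, with 60 mRNA transcripts, and for each gene the transcript with the most covered T positions was used. Of the 51, 49 code for proteasome subunits, activators or assembly factors. Psmf1, which encodes the proteasome inhibitor PI31, was counted in the group of the activators. The other 2, Psmc3ip and Psme3ip1, fit the rule by symbol but are none of these. They were left out of the summed levels and the pooled rates, but they are included in the counts of members. Expression and turnover were measured in mouse P19 cells, an embryonal carcinoma line that turns into neurons under retinoic acid. All cells were wild type. The D0 libraries (24) came from undifferentiated cells grown in serum, and the D6 libraries (23) from cells kept for 6 days in NDiff 227 medium with 500 nM retinoic acid.

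Newly made RNA was labeled with 4-thiouridine (4sU), which is read as a T>C conversion after alkylation. In the catabolic assay the cells were labeled for 15 h and chased with 10 mM UTP, so that loss of label follows decay. In the anabolic assay label was followed from the moment 4sU was added, so that its first time point held no 4sU. The dose was 20 µM at D0 and 500 µM at D6. For every comparison between the states in libraries given 4sU, of label or of reads, the state and the dose therefore cannot be told apart. Each assay had 4 time points in each state with 3 libraries each, except for the third catabolic time point at D6, which had 2. The study's methods give the hours as 0, 3, 6 and 9 and the labels as 0, 1, 3 and 9. The tests of label used 0 and 9 h, on which both sources are the same.

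The proteasome is the protease that removes proteins tagged with ubiquitin. Its 20S core is a stack of rings of alpha subunits, which form the gate, and beta subunits, some of which carry the cutting sites. The 19S regulator has a base, whose ATPases unfold the substrate, and a lid, which removes ubiquitin. Subunits are made in matched amounts, and in mammals the transcription factor NFE2L1 raises their genes together when the proteasome is inhibited. In differentiating neurons the proteasome clears cell cycle and pluripotency factors, and later proteins of the synapse.

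Short motifs (3) were looked for, on both strands, in the promoters of the members, taken from RefSeq (GRCm38.p6) as 250 bases before to 50 bases after each start site. Of the members, 43 matched to 47 promoters. The motif TGACNNNGC, the core of the antioxidant response element to which NFE2L1 binds, was in 6 of 47 promoters (12.8%), against 12.4% of all 32851 promoters of that length. CCAAT, the box of the factor NF-Y, was in 16 (34.04%, against 37.4%). CCGGAAG, which fits the site of ETS factors such as GABPA, was in 17 (36.2%, against 8.86%). No match of CCGGAAG overlapped one of TGACNNNGC. A match is a description of the letters and not a site in use, and binding was not measured. A site of CCGGAAG is shown for each member with a match that edgeR called for reads without 4sU or for label, and for Psmd6, which DESeq2 called for reads without 4sU, but not for members called only in the fits of 41 or 47 libraries that follow. Each is written 5′ to 3′ along the gene with the motif or its reverse complement in capitals.
Psmc2 (chr5:21786712-21786740, plus strand): gcgcggagctaCTTCCGGtggggaagaga
Psmd12 (chr11:107479500-107479528, plus strand): tgagcgggcgaCTTCCGGtgcgagtgacg
Psme3 (chr11:101316204-101316232, plus strand): ctgtgacgcaaCTTCCGGcgtgagcggcg
Psmd2 (chr16:20651615-20651643, plus strand): tccgcagggcgCTTCCGGtctggaggaca
Psmd6 (chr14:14120973-14121001, minus strand): cagagacgcgaCCGGAAGtcagactggcg
Where a gene held more than 1 match, the one nearest to a start site is shown. In those shown the motif began between 45 bases before and 3 bases after the start site, while Psme3 held a further match 107 bases before its start site and Psmc2 one 84 bases before another of its start sites. The TGACNNNGC matches that lie on the other strand, in Psmc6, Psmd12 and Psme4, are not shown. Those that lie on the gene's own strand are shown for comparison, with the motif in capitals.
Psmb6 (chr11:70525338-70525366, plus strand): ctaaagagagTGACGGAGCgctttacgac
Psmb5 (chr14:54618024-54618052, minus strand): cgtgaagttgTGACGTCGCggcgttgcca
Psmd9 (chr5:123228149-123228177, plus strand): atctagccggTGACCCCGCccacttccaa
Psmb6 and Psmb5 encode cutting subunits of the core, and Psmd9 an assembly chaperone of the base.

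The libraries held 3150809 to 10716358 reads at D0 and 1339674 to 7166835 at D6, counted over 1 transcript per gene. Markers went with the labels: 5 of 6 tested embryonal carcinoma genes were lower at D6, with a median log2 fold change of -7.18, and 10 of 10 neuronal genes were higher (4.15). No glial gene that could be tested was called. Gfap, Aqp4, Olig2 and Aldh1l1 were at 0 in the D6 libraries without 4sU. The myelin gene Mbp stood at 44.9, 5.20 and 35.6 CPM at D0 and at 50.8, 37.3 and 25.1 CPM at D6 there, where the states overlapped, and it was higher in the fit of all 47 libraries that follows (0.89 ± 0.32, edgeR, adjusted p = 0.0188). The endoderm and mesoderm genes gave 0 calls among 2 tested, with a summed level of 4.29 to 10.9 CPM at D6 and 0 to 5.47 at D0, and in the fit of all 47 libraries 2 of 3 tested were lower at D6 (median log2 -1.78). From bulk RNA, fewer cells of a type and less RNA per cell cannot be told apart. Some libraries stood apart from their state by the median rank correlation of gene levels, namely 2 at D0 (0.782 and 0.805, against 0.870 to 0.942 in the other 22) and 4 at D6 (0.590 to 0.692, against 0.704 to 0.837 in the other 19). The tests of reads and of label and the half-lives were repeated without those among them that each used.

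Not every member was expressed. Psma8, the alpha subunit of germ cells, Psmb11, the beta subunit of the thymus, Psmb8, an inducible immunoproteasome subunit, and Psme2, a subunit of the PA28 activator, had 0 reads in all 47 libraries. Psmb9, another immunoproteasome subunit, had 56 reads in 4 libraries. For Psme2 the 0 says little, since its transcript matches that of Psme2b over 794 bases with 99.4% identity and the tables hold only reads that map to 1 place. Psme2b had 2818 reads in all. The remaining 46 members passed the filter on low counts, among them Psmb10 as the only immunoproteasome subunit and 44 subunits, activators and assembly factors. Members have short 3′ UTRs, with a median of 208 bases against 758 over all genes, which leaves fewer T positions to convert. The 3′ UTRs of Psmc3ip and Mlx, and those of Psme1 and Emc9, overlap on opposite strands, so that their reads may be shared.

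To find out whether the proteasome genes changed with differentiation, reads were compared between D6 and D0 in the libraries without 4sU, which are not exposed to the drug. Reads were scaled to CPM (counts per 1e6 reads) with TMM factors. Summed over the 49 genes, the level was 13327, 14703 and 15057 CPM in the D0 libraries and 9966, 10091 and 10382 CPM in the D6 libraries, and the states did not overlap. The lid subunits summed to 3999 ± 306 CPM at D0 and 2671 ± 212 at D6 (SD, n = 3). The base subunits summed to 3567 ± 409 and 2418 ± 107 CPM. The activator group stood at 984 ± 96.5 and 602 ± 54.6 CPM, and in none of these 3 groups did the states overlap. Nor did they overlap for the beta subunits, with 2948 ± 310 and 2243 ± 130 CPM, or for the assembly genes, with 985 ± 148 and 648 ± 142 CPM. The alpha subunits were closer, with 1835 ± 189 and 1512 ± 253 CPM, and there the highest D6 library lay above the lowest D0 library.

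**Figure D1:**
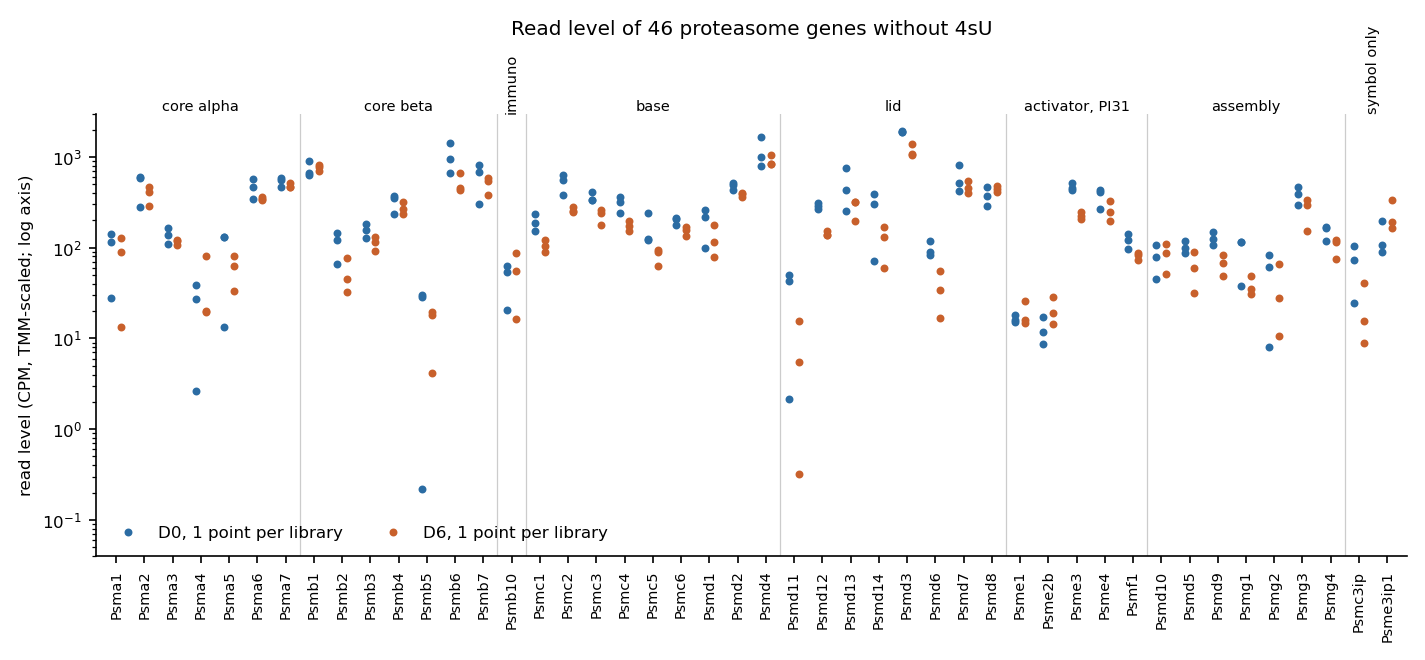
Read level of the 46 tested members in the 6 libraries without 4sU, in CPM on a log axis, grouped by subcomplex, with 1 point per library. For Psme3, Psmd3 and Psmd12 the 3 D6 points lie below all 3 D0 points, while the D0 points of Psma4 run from 2.60 to 38.7 CPM.

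Of the 46 members, 4 were lower and 0 higher at D6 by edgeR's quasi-likelihood test with Benjamini-Hochberg adjustment over 11231 genes. The share over all genes tested was 5.16% lower and 7.66% higher. At an unadjusted p under 0.05 there were 14 members (30.4%, against 25.5% of all genes), and DESeq2 called 6 lower and 0 higher, against 8.46% and 10.6% of all genes. Without both D0 libraries that stand apart (replicates 56 and 26), edgeR called 6 lower and 0 higher, namely Psmc2, Psme3, Psmd12, Psmd3, Psmb2 and Psmd14, the deubiquitinase of the lid (-1.49 ± 0.35, adjusted p = 0.00462), but not Psmb6, against 4.88% lower and 7.55% higher of all genes. With the 6 libraries without 4sU alone, 3 were lower, Psme3, Psmd12 and Psmc2, against 5.16% of all genes. The median log2 fold change of the members was -0.46, against 0.03 over all genes, and 38 of 46 members (82.6%) were below 0, against 49% of all genes. The called genes belonged to 4 different subcomplexes.

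Psme3 encodes PA28-gamma, the nuclear activator that opens the core without ubiquitin. Its transcript (NM_011192.3, 3′ UTR at chr11:101321873-101323531 of mm10) stood at 451, 438 and 513 CPM at D0 and at 226, 249.8 and 207 CPM at D6. All 3 D6 libraries were well below all 3 D0 libraries. The log2 fold change was -0.96 ± 0.23 (SE), with an adjusted p of 0.00769 by edgeR, and this call was the only one of the 4 that stood whichever library was left out.

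Psmc2 (NM_011188.3, chr5:21803705-21803784), an ATPase of the base, stood at 562, 377 and 629.8 CPM at D0 and at 247, 252 and 281 CPM at D6, again without overlap. Its log2 fold change was -0.94 ± 0.25 (edgeR, adjusted p = 0.0170), and it was not called without D6 replicate 37 or D0 replicate 55 or 57, where its adjusted p was between 0.0572 and 0.0895. Psmd12 (NM_025894.2, chr11:107497734-107498036), a scaffold subunit of the lid, went from 312, 290.2 and 264 CPM to 152, 138 and 137 CPM, with tight replicates in both states. Its log2 fold change was -0.95 ± 0.30 (edgeR, adjusted p = 0.0400), and this call was lost without any of the 3 unlabeled D6 libraries, without D0 replicate 55 or 57, or without the labeled D6 replicate 7, with adjusted p between 0.0532 and 0.116. Psmb6 (NM_008946.4, chr11:70527580-70527858) is the catalytic beta subunit with caspase-like activity. Its libraries stood at 663, 1438 and 941 CPM at D0 and at 452, 674 and 429.7 CPM at D6. The highest D6 library was above the lowest D0 library, so that the states overlapped. The log2 fold change of Psmb6 was -0.89 ± 0.28 (edgeR, adjusted p = 0.0411). Without the D0 library that stands apart, replicate 56, it was -0.60 with an adjusted p of 0.178. The call was also lost without D6 replicate 37 or 39, D0 replicate 57, the labeled D6 replicates 7, 8 or 9 or the labeled D0 replicate 25, with adjusted p up to 0.156.

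Other members of the lid and base were below 0 without passing the test. Psmd3, another scaffold of the lid, stood at 1862, 1879.7 and 1913 CPM at D0 and at 1086, 1396 and 1058 CPM at D6, and its states did not overlap. Its log2 fold change of -0.60 ± 0.20 just missed the threshold (edgeR, adjusted p = 0.0513), and without both D0 libraries that stand apart it was -0.65 ± 0.17 (edgeR, adjusted p = 0.0134). Psmd2, the large scaffold of the base, was the member of the base with the smallest difference. It stood at 514, 428 and 496 CPM at D0 and at 404, 393 and 362 CPM at D6, with a log2 fold change of -0.24 ± 0.22. All 9 base subunits were below 0, as were 7 of 8 lid, 6 of 7 beta, 6 of 7 alpha and 6 of 7 assembly genes, against 3 of 5 in the activator group and 0 of 1 for Psmb10.

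Some of the lowest and highest members of a subcomplex had few reads or wide spread. Psmd11 of the lid, with a median of 64 reads per library, stood at 43.4, 2.17 and 49.97 CPM at D0 and at 15.7, 0.322 and 5.56 CPM at D6. Its log2 fold change of -2.06 ± 1.64 is smaller than 2 of its standard errors. Psmd8, the only lid subunit above 0, stood at 369.9, 287 and 467 CPM and then at 448, 411 and 476 CPM, with overlap and a log2 fold change of 0.32 ± 0.30. The extremes of the core and of the assembly genes follow.

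Psmb2, a beta subunit without a cutting site, stood at 123, 66.5 and 145 CPM at D0 and at 32.2, 44.7 and 76.7 CPM at D6 (log2 -1.05 ± 0.50, and -1.36 ± 0.43 without both D0 libraries that stand apart, edgeR, adjusted p = 0.0442). Psmb1, another such subunit, stood at 627, 899 and 664 CPM and at 823, 773 and 708 CPM (0.15 ± 0.23), and its states overlapped fully. Psma5 stood at 130.3, 13.4 and 131 CPM and at 62.2, 33.2 and 81.2 CPM (-0.57 ± 0.72), where the low D0 value came from the library that stands apart. Without both such D0 libraries it was -1.12 ± 0.42 (edgeR, adjusted p = 0.0969). Psma5 and Psma4 are structural subunits of the alpha ring. Psma4 had 38.7, 2.60 and 27.1 CPM and then 20.03, 19.6 and 80.5 CPM (0.88 ± 0.96, and 0.31 ± 0.90 without both). Psmg1, a chaperone that starts the alpha ring, had 116, 37.5 and 116 CPM and then 31.2, 48.6 and 35.3 CPM (-1.16 ± 0.61, and -1.57 ± 0.54 without both D0 libraries that stand apart, edgeR, adjusted p = 0.0647). Psmd10, or gankyrin, a chaperone of the base, had 45.1, 108 and 78.4 CPM and then 50.8, 111 and 86.7 CPM (0.18 ± 0.54). With all 12 libraries of this test none of these 6 passed it.

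Psmb10, the inducible trypsin-like subunit, stood at 62.1, 20.4 and 53.5 CPM at D0 and at 87.7, 55.7 and 16.2 CPM at D6, and the states overlapped (0.30 ± 0.62). Psme2b stood at 17.3, 8.67 and 11.9 CPM and at 28.4, 14.5 and 19.2 CPM (0.78 ± 1.05). Of the genes that are not subunits, activators or assembly factors, Psmc3ip, a factor of meiotic recombination, had 72.3, 24.5 and 104 CPM at D0 and 8.82, 15.5 and 40.5 CPM at D6 (-1.56 ± 0.82). Psme3ip1, which binds PA28-gamma, had 90.02, 106 and 198 CPM and then 335, 190.3 and 163 CPM (0.88 ± 0.37). Neither was called.

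The other time points bear on the same question with more libraries, although their cells were exposed to 4sU. A fit of all 47 libraries with assay and time point as a block, added after the data had been seen, called 27 of 47 members lower and 1 higher, Psme3ip1. Over all 13283 genes of that fit, 28.9% were lower and 20.1% higher, and the median of all genes was shifted to -0.26, against -0.57 for the members. Without the 6 libraries that stand apart, 33 members were lower and 1 higher, against 30% (3989 of 13283) and 22.3% of all genes.

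The calls in the fit of all 47 libraries were spread over the subcomplexes. All 9 base subunits were lower, and 6 of 8 lid subunits. In the core 4 of 7 beta subunits were lower, Psmb3, Psmb4, Psmb6 and Psmb7, and 2 of 7 alpha subunits, Psma2 and Psma5. The activators Psme3 and Psme4 were lower, as were the assembly genes Psmg3 and Psmd5. Without the 6 libraries that stand apart, 9 of 9 base, 7 of 8 lid, 6 of 7 beta and 3 of 7 alpha subunits were lower. The subcomplexes were not tested against each other. Psmd3 had a log2 fold change of -0.94 ± 0.08, Psme3 of -1.10 ± 0.10 and Psmc5, an ATPase of the base, of -1.48 ± 0.26. Psma7 was at -0.01 ± 0.09 and Psmb1 at 0.10 ± 0.08, and neither was called although their errors were among the small ones. Psmb10 was lower here (-1.37 ± 0.37), opposite in sign to its value without 4sU.

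**Figure D2:**
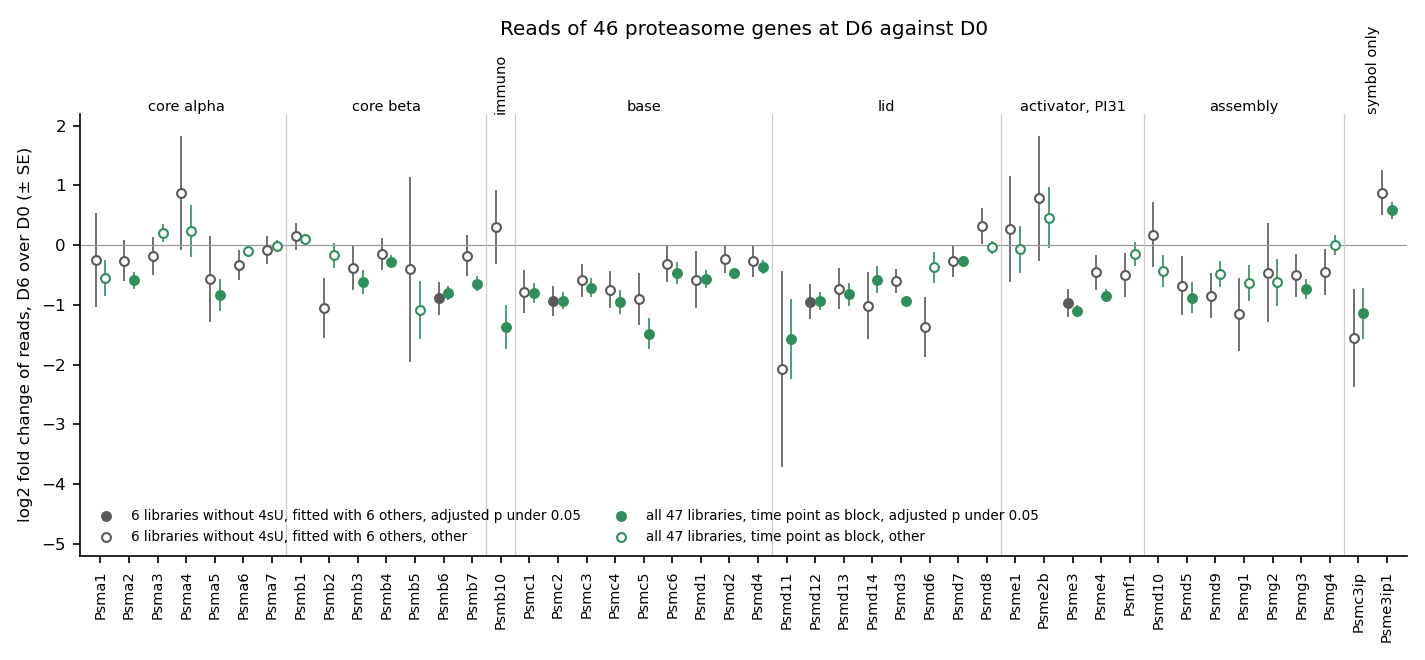
Log2 fold change of reads at D6 over D0 with its SE for the 46 members, grouped by subcomplex. Grey points come from the contrast without 4sU and green points from all 47 libraries, and filled points have an adjusted p under 0.05. All 9 base subunits lie below 0 in both fits and are filled in the fit of all libraries.

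At each of the 8 matched assay and time points the median log2 ratio of the members, D6 over D0, was between -0.69 and -0.28, while that of all genes was between -0.24 and -0.01. Of 45 members with reads at every point, 16 were lower at all 8, against 18.9% of all genes. A further 8 were lower at 7 of the 8, so that 24 were lower at 7 or 8, against 29.8% of all genes. Psme3ip1 was the only member higher at all 8, against 17.04% of all genes. Psme3 ranged from -1.68 to -0.78 over the 8 points and Psmd3 from -1.25 to -0.65, so that neither came near 0 at any point. The points share no libraries, but all D6 cells and all D0 cells may share their cultures.

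Exposure to 4sU itself was examined by setting the libraries labeled for 15 h against those without 4sU. No member was called by edgeR at D0, at D6 or in the difference between the states, where 0.0178% of all genes were lower and as many higher at D0. At D6 0.0356% were lower and 0.0% higher, and in the difference 0.0089% and 0.0%. At an unadjusted p under 0.05 there were 2, 3 and 0 members (4.35%, 6.52% and 0%), against 3.97%, 5.71% and 4.77% of all genes. DESeq2 called 0 members in each comparison. The activator Psme4 was below 0 in both states, at -0.64 ± 0.29 and -0.80 ± 0.29, and was among the members with an unadjusted p under 0.05 in each. The median of the members was 0.11 at D0 and 0.12 at D6. The assay goes with the label in these libraries, so that drug and assay cannot be told apart.

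Label was compared as the T>C rate, the conversions per covered T position. After 15 h of 4sU, the rate pooled over the 43 subunits, activators and assembly factors with at least 1000 covered T per library on average was 1.44% ± 0.08 at D0 and 5.04% ± 0.21 at D6 (SD, n = 3). Over all genes it was 1.42% ± 0.07 and 4.65% ± 0.34. Without 4sU the pooled rate of the members was 0.15% ± 0.04 at D0 and 0.17% ± 0.03 at D6. Label after 15 h was compared between D6 and D0 relative to the rate of all mRNA of the same library. Of 45 members, 0 differed by edgeR and 0 by DESeq2. Over all genes edgeR called 0.0886% lower and 0.0111% higher. At an unadjusted p under 0.05 there was 1 member, Psmb10 (2.22%, against 5.37% of all genes).

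The chase showed a difference between the states. Of the label present at 0 h, the pooled proteasome transcripts held 41.5%, 43.7% and 43.8% after 9 h at D0. At D6 they held 21.3%, 19.7% and 20.6%. All mRNA held 28.9%, 28.1% and 30.4% at D0 and 19.99%, 18.6% and 17.3% at D6. In undifferentiated cells the proteasome transcripts thus kept a larger share of their label than the transcriptome in each of the 3 libraries, and in differentiated cells the margin was small. The means were 42.99% ± 1.26 against 29.1% ± 1.13 at D0 and 20.5% ± 0.79 against 18.6% ± 1.33 at D6 (SD, n = 3). With the rate without 4sU subtracted they were 36.5% ± 1.40 against 19.5% ± 1.28 at D0 and 17.8% ± 0.82 against 15.7% ± 1.38 at D6. These pooled shares are descriptions without a test. Psmd3 supplied 14.9% of the covered T positions of the pool, and without it the shares were 43.9% and 20.9%.

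**Figure D3:**
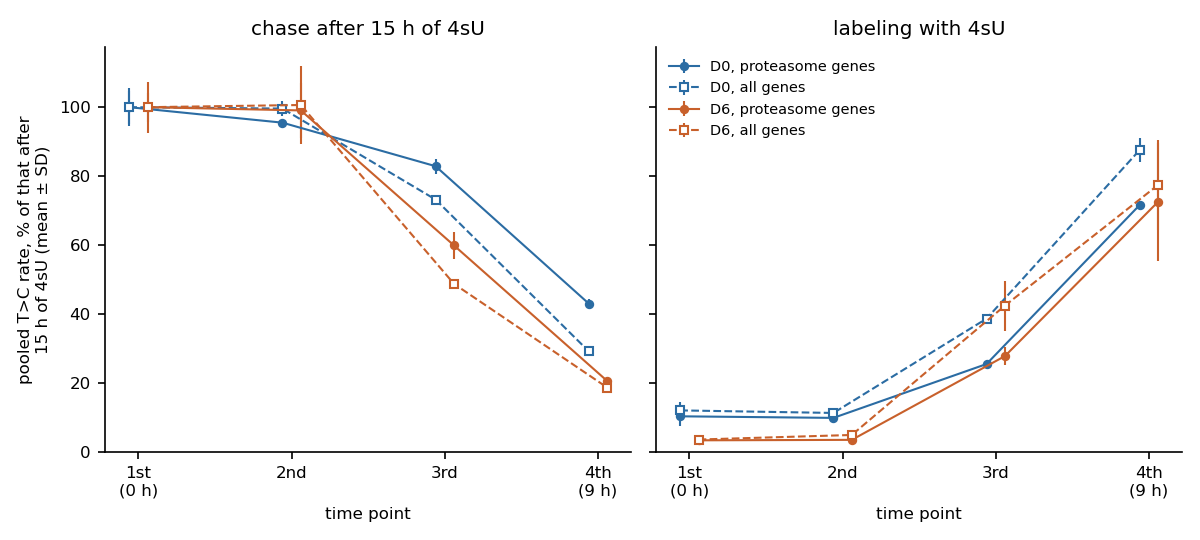
Pooled T>C rate as a percentage of the mean rate after 15 h of 4sU, over 4 time points of the chase (left) and of labeling (right), for the 43 proteasome genes (filled, solid) and for all genes (open, dashed), with mean and SD over the libraries. In the chase at D0 the proteasome genes end at 42.99% and all genes at 29.1%, and at D6 at 20.5% and 18.6%.

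The subcomplexes differed in the mean share of label they held after 9 h. At D0 the beta subunits held 58.6% ± 11.7, the alpha subunits 47.9% ± 6.79 and the activator group 46.4% ± 10.4. The base held 41.4% ± 9.71, the lid 34.8% ± 2.48 and the assembly genes 33.03% ± 14.5. Neighbours in this order differ by less than their spread. At D6 the beta subunits again held most, 33.1% ± 4.34, then the alpha subunits with 22.4% ± 6.43, the assembly genes with 19.4% ± 1.97, the lid with 17.9% ± 5.56, the base with 15.95% ± 1.69 and the activator group with 12.4% ± 2.34. Every one of these 6 means was lower at D6 than at D0. With the rate without 4sU subtracted, the order at D6 changed to base (15.4% ± 1.70), assembly genes (14.99% ± 2.08) and lid (13.8% ± 5.84) between the alpha subunits (21.1% ± 6.53) and the activator group (9.56% ± 2.41), and at D0 the assembly genes held 20.2% ± 17.3 and the lid 26.02% ± 2.81.

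Gene by gene, the label left after 9 h was tested relative to all mRNA of the library. At D0 2 of 45 members kept more than all mRNA and 0 kept less, where 1.27% of all genes were higher and 2.31% lower (edgeR, 9032 genes). The median log2 value was 0.56 for the members and -0.62 for all genes. At D6 1 member was higher and 0 were lower, against 1.01% and 1.28% of all genes, and the medians were -0.05 and -0.62. In each state 9 members had an unadjusted p under 0.05, against 20.9% of all genes at D0 and 18.2% at D6, which is near the members' share.

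Psmb1 was called at D0. Its transcript (NM_011185.3, chr17:15475721-15476019) held 76.1%, 82.5% and 104% of its label after 9 h at D0 and 43.4%, 46.3% and 35.6% at D6. The D6 libraries were all below the D0 libraries, yet in both states above all mRNA. Its rate without 4sU already stood at 48.02% ± 7.44 of that after 15 h at D0 and at 10.7% ± 1.14 at D6, and with it subtracted the shares left were 75.7% ± 27.6 and 34.7% ± 6.21 (SD, n = 3). Relative to all mRNA the log2 value at D0 was 1.58 ± 0.34, with an adjusted p of 0.00490 by edgeR, and the call stood whichever library was left out. With the rate without 4sU subtracted, limma gave 1.89 with an adjusted p of 0.110. At D6 the log2 value was 1.15 ± 0.34 (edgeR, adjusted p = 0.0597).

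Psmd2 (NM_134101.2, chr16:20663246-20663414) held 48.7%, 111% and 49.1% of its label at D0 and 13.2%, 12.6% and 16.9% at D6. The second D0 library lay far above the others. The log2 value relative to all mRNA at D0 was 1.27 ± 0.34 (edgeR, adjusted p = 0.0266), and without that library, replicate 35, it was 0.72 with an adjusted p of 0.250. Without the library of the 0 h point that stands apart, replicate 26, it was 1.25 (edgeR, adjusted p = 0.0907), and without replicate 25 it was 1.13 (edgeR, adjusted p = 0.115).

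Psmb10 (NM_013640.3, chr8:105935728-105935793) was the member called at D6, with a log2 value of 2.16 ± 0.53 (edgeR, adjusted p = 0.0226). It held 51.0%, 123% and 72.8% of its rate after 9 h at D6 and 76.7%, 82.0% and 81.5% at D0. However, its conversions were present without 4sU. In libraries that had not seen the drug its rate was 5.79% ± 2.91 at D0 and 6.25% ± 3.34 at D6, against 0.15% and 0.17% for the pooled members, and after 15 h of 4sU it was 9.27% ± 2.73 and 13.03% ± 3.29. With the rate without 4sU subtracted, the log2 value at D6 was 1.68 with an adjusted p of 0.168 by limma. The rates after 9 h, 7.43% ± 0.27 at D0 and 10.7% ± 4.81 at D6, overlapped those without 4sU in both states. The call was lost without D6 replicate 7, 8, 9 or 17, with adjusted p between 0.0632 and 0.115 by edgeR.

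**Figure D4:**
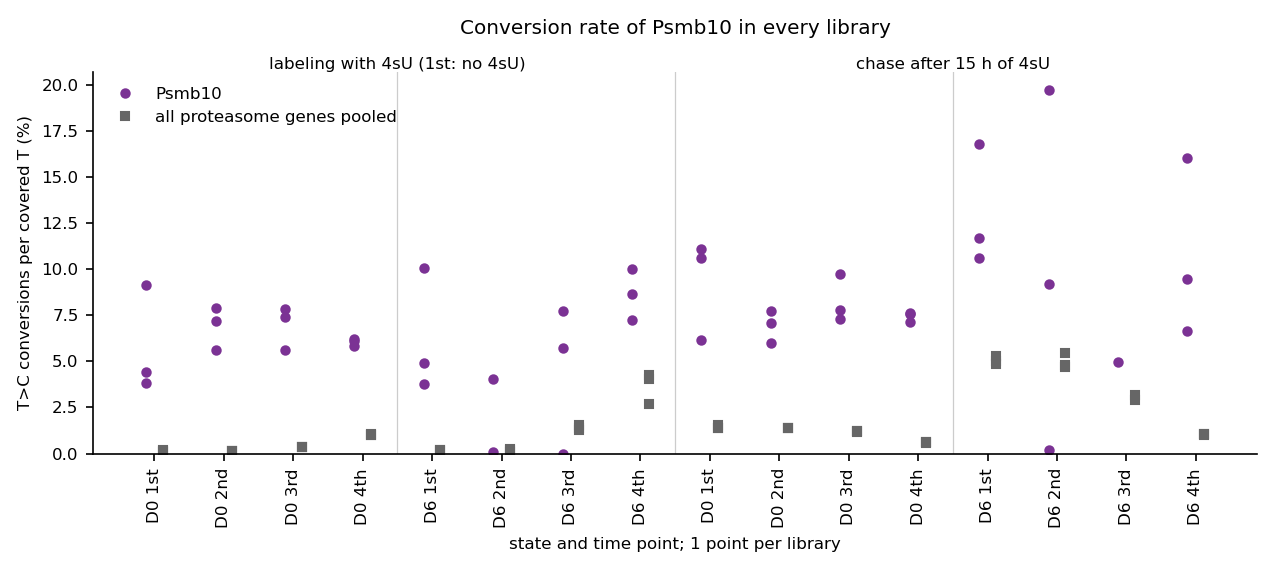
T>C conversions per covered T of Psmb10 (circles) and of all proteasome genes pooled (squares) in every library, by state, assay and time point. Without 4sU the libraries of Psmb10 lie at several percent, where the pooled genes reach at most 0.191%.

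The change between the states was tested as the difference of both log2 values. No member was called by edgeR, 6 (13.3%, against 11.8% of all genes) had an unadjusted p under 0.05, and DESeq2 called 1, Psma2. Over all genes edgeR called 0.0554% lower and 0.0221% higher. The share of all genes called lower by DESeq2 was larger and is given with the processing alternatives at the end. The median of the members was -0.66, against -0.03 over all genes, and 35 of 45 members were below 0, against 50.7% of all genes. Psma2, an alpha subunit (NM_008944.2, chr13:14625466-14625673), held 38.1%, 72.3% and 45.5% of its label after 9 h at D0 and 8.15%, 14.5% and 4.14% at D6. Its log2 difference was -1.92 ± 0.51 (edgeR, adjusted p = 0.171), and without the D6 library with 14.5%, replicate 17, it was called lower. Psmd2 had the next lowest p, with -1.64 ± 0.47 (edgeR, adjusted p = 0.184).

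Other members showed the same order of the states with tighter values. Psmc2 held 25.1%, 42.9% and 33.6% at D0 and 8.24%, 6.72% and 8.01% at D6, and Psme3 held 32.1%, 25.02% and 33.7% and then 11.9%, 6.97% and 7.64%. Both are among the genes whose reads were lower at D6. Psma7, whose reads were not called, held 49.4%, 48.5% and 55.2% at D0 and 35.1%, 29.5% and 32.5% at D6. Psma3 went the other way, with 3.52%, 0% and 14.7% at D0 and 4.14%, 53.5% and 31.4% at D6, and its states overlapped.

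Of 42 members with a share in all 6 libraries, 17 had all 3 D6 libraries below all 3 D0 libraries and 0 had them above. Over all genes 14.9% lay below and 3.55% above. With the rate without 4sU subtracted, 14 members lay below and 1 above, against 14.3% and 11.4% of all genes. The 17 came from the alpha ring (Psma1, Psma2, Psma5, Psma6, Psma7), the beta ring (Psmb1, Psmb5), the base (Psmc2, Psmc3, Psmc6, Psmd2, Psmd4), the lid (Psmd3, Psmd7) and the activator group (Psme3, Psme4 and the inhibitor Psmf1), and none from the assembly genes. Psmb5 rests on few bases, with 270 to 354 covered T at 0 h and 156 to 164 at 9 h in the D6 libraries and 46 in 1 D0 library. With at least 1000 covered T in each of the 12 libraries, a minimum set after seeing the data, Psmb5 and Psma1 dropped out and 15 of 37 members lay below and 0 above, against 18% and 3.96% of all genes. For Psmd7 the order of the means turned with the subtraction.

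**Figure D5:**
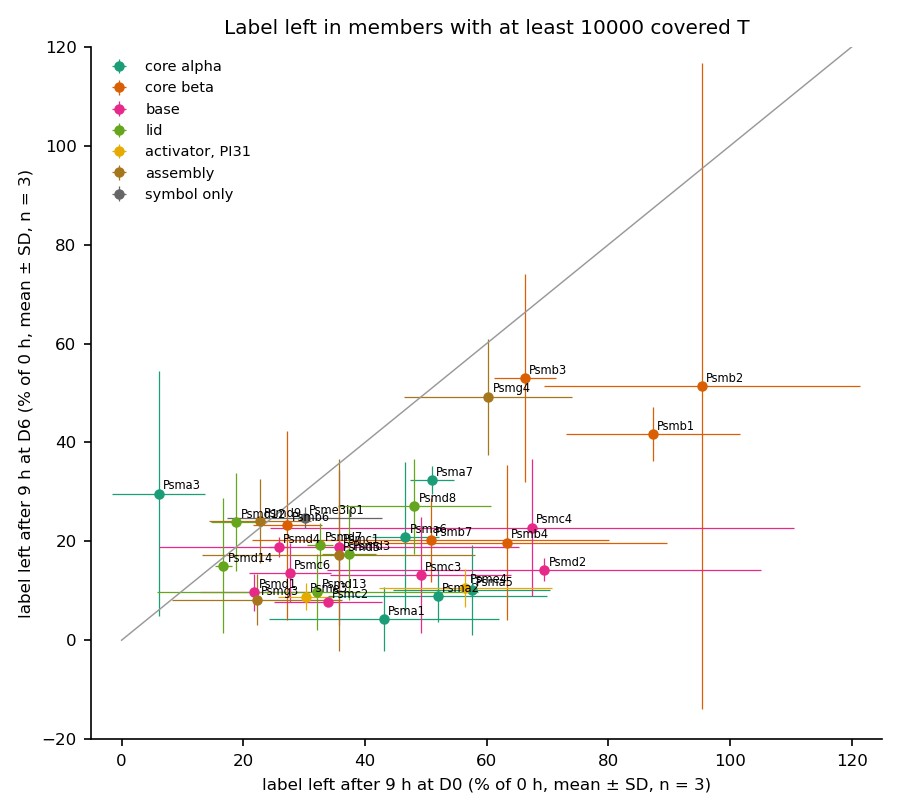
Label left after 9 h at D6 against that at D0, as a percentage of the rate at 0 h with mean and SD over 3 libraries, for the 33 members with at least 10000 covered T per library on average, coloured by subcomplex. The line marks equal shares, and most members, among them Psmb1 at 87.4% and 41.7%, lie below it.

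Half-lives were fitted to all time points with the hours and limits of the study. Few fits passed R squared over 0.6, namely 9 members at D0 and 14 at D6 for decay. Their medians were 490 min at D0 and 300.2 min at D6, against 286 and 239 min over all genes kept. In both states 5 members were kept, and all 5 half-lives were shorter at D6, with a median log2 change of -0.63 against -0.31 over the 347 genes kept in both states. Psma2 went from 783 ± 145 to 315 ± 80.99 min (SE of the fit), Psmd3 from 696 ± 168 to 429 ± 114 min and Psmd7, a scaffold partner of the deubiquitinase of the lid, from 556 ± 106 to 359 ± 65.4 min. Psma7 went from 578 ± 47.9 to 453 ± 103 min and the assembly chaperone Psmg3 from 409 ± 74.1 to 274 ± 88.2 min. Except for Psma2, these differences are within about 2 standard errors. Psmd7 and Psmg3 had conversions without 4sU, at 31.6% ± 9.22 and 21.0% ± 14.7 of their rate after 15 h at D0, close to what they held after 9 h (32.7% ± 2.13 and 22.2% ± 13.9). With this subtracted, Psmd7 held 1.62% ± 3.11 after 9 h at D0 and 7.81% ± 5.05 at D6, the other order of the states. Half-lives fitted with it subtracted were 352 ± 88.7 and 300.4 ± 63.6 min for Psmd7 and 463 ± 41.4 and 447 ± 102 min for Psma7, and the median log2 change of the 5 members was then -0.34, against -0.21 over all genes. Without the libraries that stand apart, 6 members were kept in both states, with a median log2 change of -0.60 against -0.22. With the hours of the labels the medians were 344 and 193 min, so that the level of a half-life depends on which hours are right. The median R squared of the members for decay was then 0.36 at D0 and 0.53 at D6, against 0.27 and 0.45 with the hours of the methods. Which hours are right was not tested. With 0 and 9 h only, 24 members could be kept in both states, with a median log2 change of -0.72 against -0.22 over all genes.

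Proteasome transcripts had taken up a smaller share of label than all mRNA at D0. After 9 h of 4sU the pooled members had reached 70.5%, 71.6% and 72.7% of their rate after 15 h at D0, where all mRNA had reached 86.2%, 85.0% and 91.6%. At D6 the members had reached 84.5%, 52.9% and 80.2% and all mRNA 89.5%, 63.4% and 79.4%. The low D6 values came from the library that stands apart, replicate 53, and without it the mean of the members was 82.3% in place of 72.5% ± 17.1 (SD, n = 3). At the second time point the pooled members had not gained label in either state, with 9.81% ± 0.62 against 10.3% ± 2.90 without 4sU at D0 and 3.43% ± 1.17 against 3.30% ± 0.53 at D6. The rate of all mRNA at D6 was 0.226% ± 0.014 at that point against 0.164% ± 0.028 without 4sU, with no overlap, and at D0 it was 0.160% ± 0.002 against 0.170% ± 0.034. By gene, 0 of 45 members were called by edgeR at D0, at D6 or between the states, and 0 by DESeq2. At an unadjusted p under 0.05 there were 2 members in each (4.44%), against 4.73%, 4.69% and 5.76% of all genes. Over all genes the calls by edgeR were 0.0% at D0 in either direction, 0.0111% lower and 0.0% higher at D6, and 0.0% between the states. Synthesis half-lives were kept for 14 members at D0, with a median of 606 min, and for 9 at D6, with 405 min, against 421 and 382 min over all genes. Without the libraries that stand apart 18 and 26 members were kept, with medians of 625 and 456 min, against 439 and 353 min over all genes.

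Genes that work with the proteasome but carry other symbols were taken from lists. Of 13 genes of ubiquitin receptors, shuttles and deubiquitinases, 4 were lower at D6 and 0 higher without 4sU, where 5.16% of all genes were lower and 7.66% higher. Among these, Uchl5, a deubiquitinase of the base, stood at 83.5, 157 and 55.5 CPM at D0 and at 25.7, 36.4 and 11.1 CPM at D6, with a log2 fold change of -1.94 ± 0.61 (edgeR, adjusted p = 0.0392). Without the D0 library that stands apart, replicate 56, it was -1.48 ± 0.65 (edgeR, adjusted p = 0.173). Usp14, another deubiquitinase, and the shuttle Rad23b were also among those called, and Rad23b was not called without replicate 56 (-0.64 ± 0.22, edgeR, adjusted p = 0.0742). Of 5 further subunits and maturation factors 1 was lower, the ubiquitin receptor Adrm1, with 13.4, 87.8 and 11.4 CPM at D0 and 1.67, 0.322 and 2.54 CPM at D6 (-4.50 ± 1.45, edgeR, adjusted p = 0.0452), and without replicate 56, which holds its high D0 value, it was -2.96 ± 1.56 (edgeR, adjusted p = 0.269). In the fit of all 47 libraries Adrm1 and Uchl5 were lower (-2.04 ± 0.57 and -2.06 ± 0.36, edgeR, adjusted p = 0.00219 and 1.86e-06), and in that of 41 libraries as well (-1.49 ± 0.51 and -1.63 ± 0.26, edgeR, adjusted p = 0.0121 and 3.63e-07). By list the fit of all 47 libraries called 7 of the 13 lower and 3 higher. It called 3 of the 5 further subunits and maturation factors lower and 1 higher, and 2 of the 5 VCP genes lower and 1 higher. Of the 6 ubiquitin and E1 genes it called 1 lower and 3 higher. Over all genes that fit called 28.9% lower and 20.1% higher. Of 5 genes around the unfoldase VCP 1 was lower, its cofactor Nploc4, with 305, 378 and 284 CPM and then 94.7, 128 and 80.2 CPM (-1.60 ± 0.30, edgeR, adjusted p = 0.000955). Without 4sU none of 6 ubiquitin and E1 genes was called, and neither was Nfe2l1, whose libraries stood at 192, 121 and 107 CPM at D0 and at 228, 169 and 105 CPM at D6 (0.33 ± 0.37) and overlapped, nor Nfe2l2. In the fit of all 47 libraries Nfe2l2 was lower (-1.77 ± 0.51, edgeR, adjusted p = 0.00283) and Nfe2l1 was at -0.0060 ± 0.14.

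Of the 28 partners tested for label, 4 kept more than all mRNA after 9 h and 1 kept less at D0, and 3 kept more and 2 less at D6, where 1.27% of all genes kept more and 2.31% less at D0 and 1.01% and 1.28% at D6. The median log2 value of the partners was -0.93 at D0 and -0.47 at D6, against -0.62 over all genes in both states. Pomp and Sem1, which belong to the proteasome by function, were higher in both states. Pomp, the maturation factor of the core, held 62.2% ± 7.01 after 9 h at D0 and 39.5% ± 7.87 at D6 (SD, n = 3), with log2 values relative to all mRNA of 1.09 ± 0.24 and 1.08 ± 0.24 (edgeR, adjusted p = 0.00532 and 0.00807). Sem1, a small subunit of the lid, held 126% ± 27.4 and 55.4% ± 11.53, with log2 values of 2.09 ± 0.41 and 1.57 ± 0.40 (edgeR, adjusted p = 0.00156 and 0.0258), while its rate without 4sU was 35.996% ± 34.6 of that after 15 h at D0 and 5.83% ± 0.67 at D6. Among the shuttle and deubiquitinase genes, Ddi2, the protease that activates NFE2L1, was called lower at D6, where it held 0%, 0% and 0.410% of its label. No partner was called in the difference between the states.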

How the data were processed

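SLAM-seq libraries (47) of P19 cells were grouped by state, assay and time point from their labels. The authors aligned QuantSeq 3′ reads to mm10 with SLAMdunk 0.3.3, called polymorphisms on the aligned reads and counted conversions over 3′ UTR intervals. The deposited counts used here are of reads, of T bases covered by reads and of T>C conversions. The authors' CPM and their conversion rate, a fraction, were not used. Whether counting used the strand is not given in the sources used here. Rows carry RefSeq names. Intervals of a transcript were added up, and a symbol was found for 28147 of 28190 mRNAs.

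Reads of 12 libraries (0 h of both assays, 4 groups) were tested with edgeR 4.0.16 (TMM, filterByExpr, quasi-likelihood, R 4.3.3). Conversions of 18 libraries were tested in edgeR with an offset of the log of covered T times the library's overall rate, for genes averaging 1000 or more covered T per library. A call is an adjusted p under 0.05 (Benjamini-Hochberg over all genes). DESeq2 1.42.0 and limma 3.58.1 gave alternatives. Half-lives were fitted by least squares over a grid of rates (numpy 2.4.6) and kept with R squared over 0.6 and up to 5000 min. The scripts were tested on simulated data. No molecular identifiers are named in the sources used here.

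Members and lists, including motifs, were chosen with earlier results of these data known. Values per library are given for the lowest and highest member of each subcomplex, for Psmb10 and for members called, with Psmd3, Psma2, Psma3, Psma7, Psmc2 and Psme3 chosen after their values had been seen. Partner genes are given by counts, with values for those called with the largest change and for Nfe2l1. The study's methods state 15 h of labeling in one place and 13 h in another. Some partner genes are not reported here.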

Additional observations from a re-analysis of the deposited data

How the results depend on the processing

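No paired analysis was possible because the labels number every library differently, so that the groups share no replicate numbers. Depth limits members with few reads, such as Psmd11 and Psme2b. Against 4 members with lower reads at D6, the fits with assay and time point as a block, chosen after seeing the data, gave 27 lower and 1 higher (all 47 libraries) and 33 lower and 1 higher (41 libraries). Without both D0 libraries that stand apart 6 were lower, with Psmb6 lost, and with the 6 libraries without 4sU alone 3 were lower, with Psmb6 lost (edgeR, adjusted p = 0.0827). Leaving out 1 library gave 1 to 5 lower and 0 to 1 higher. The single call was left without D6 replicate 37 or D0 replicate 57, and 2 calls were left without D6 replicate 7 or 39 or D0 replicate 55. Among the members given by library, those not called whose log2 fold change turned negative were Psma4 (-0.31 in 41 libraries), Psmb10 (-1.37 in 47, -1.12 in 41 and -0.088 without both D0 libraries that stand apart), Psmd10 (-0.43 and -0.32) and Psmd8 (-0.037 and -0.13). With 1 library left out, Psma4 ranged from -0.125 to 1.47, Psmb10 from -0.27 to 0.74 and Psmd10 from -0.12 to 0.45. The causes were not tested.

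An offset of covered T positions only, without the library's overall rate, compares absolute rates. It then gave 20 members higher at D6 after 15 h (9% of all genes), 14 lower and 0 higher for label left at D0 (28.1% and 0.111%), 32 lower and 0 higher at D6 (44.2% and 0.133%), and 2 lower for D6 against D0 (0.31%), and it turned Psmb1 to -0.19, Psmd2 to -0.53 and Psmb10 to -0.29. For label left at D0, limma with the rate without 4sU subtracted called 1 lower, Psmd7, and 1 higher, Psmd2 (1.45% and 1.14% of all genes), and without both libraries that stand apart 1 was higher (1.21%). At D6 DESeq2 called 3 lower and 3 higher (7.11% and 2.03%), limma 0 higher (0.631%), a minimum of 10000 covered T gave 1 lower (4.38%), and without both libraries that stand apart 2 were higher (1.52%). For D6 against D0 DESeq2 called 1 lower (1.37%). Leaving out 1 library gave 1 to 2 higher at D0, 0 to 2 lower and 0 to 3 higher at D6, and 0 to 1 lower for D6 against D0.

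With background subtracted the pooled label left was 36.5% at D0 and 17.8% at D6, and the pooled uptake at D0 was 68.4%. Without the subtraction the pooled uptake at D0 was 71.6%, and 72.9% when Psmd3 was left out. With 1 library left out, and again without the subtraction, the pooled label left at D0 ranged from 42.3% to 44.4%. The uptake at D0 then ranged from 70.5% to 73.99%.

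Decay half-lives had medians at D0 of 344 min with the labels' hours, 324 min with 0 and 9 h only (24 members), 364 min with background subtracted and 667 min with no minimum of R squared (39 members). At D6 these were 193 min with the labels' hours, 213 min (37 members) and 385 min (40 members). For uptake at D0 they were 370.1 min with the labels' hours (31 members), 354 min with 0 and 9 h (31 members) and 493 min with no minimum (44 members), and at D6 20 members were kept with the labels' hours, 22 with 0 and 9 h (238 min) and 42 with no minimum (567 min), and 26 without the libraries that stand apart, chosen after seeing the data.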
